A study of Mus musculus with 30 samples.

Results

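A set of 10 genes of the route by which cells show peptides on MHC class I molecules was followed in brain endothelial cells of ageing mice. The 10 members were chosen by name, with earlier results of these data known. All 10 were found among the 48795 genes counted in every library. They are the classical class I heavy chains H2-K1 and H2-D1, the non-classical heavy chains H2-Q6 and H2-Q7, the light chain B2m, the peptide transporter subunits Tap1 and Tap2, the loading factor Tapbp, the immunoproteasome subunit Psmb8 and the transcriptional activator Nlrc5. The libraries came from primary endothelial cells of the brains of untreated wild-type mice, sampled at 2, 6, 12, 18 and 24 months of age. Each age had 6 libraries, 3 from males (replicates 1 to 3) and 3 from females (replicates 4 to 6). No group carried a transgene or received an agent, and the sources used here do not give the strain, the way the cells were isolated or whether a library pooled mice. With pooled mice, the spread between libraries would be one between pools.

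MHC class I molecules carry short peptides from proteins made inside the cell to its surface, where CD8+ T cells and NK cells inspect them. The proteasome cuts the peptides, the immunoproteasome being a form with exchanged catalytic subunits that interferon induces. The TAP transporter, a dimer of Tap1 and Tap2, moves the peptides into the endoplasmic reticulum, where tapasin (the product of Tapbp) helps load them onto a heavy chain bound to beta-2 microglobulin (B2m). H2-Q6 and H2-Q7 belong to the Qa-2 group of non-classical heavy chains. Nlrc5 is a transactivator that acts at class I promoters together with RFX, CREB/ATF and NF-Y factors, which bind the S, X and Y boxes there. Endothelial cells of the brain face the blood on one side, so their class I molecules are within reach of circulating lymphocytes.

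Of the 10 members 8 lie on chromosome 17, in or beside the major histocompatibility complex. On build GRCm38 (GENCODE M21, 1-based), H2-K1 spans chr17:33996017-34000347 on the minus strand, H2-D1 chr17:35262730-35267499, H2-Q6 chr17:35424850-35430055 and H2-Q7 chr17:35439155-35443773, these last 3 on the plus strand. Also on the plus strand, Tapbp spans chr17:33915899-33929292, Tap1 chr17:34187553-34197225, Psmb8 chr17:34197721-34201454 and Tap2 chr17:34203527-34216321. B2m lies at chr2:122147686-122153083 and Nlrc5 at chr8:94434356-94527272. All 10 are protein-coding, and the counts are of reads over their exons.

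Promoter sequence is shown for the 4 heavy chains and B2m because these genes share class I control elements, while their changes with age differed in size. The promoter table (RefSeq, GRCm38.p6) held 8 of the 10 members, the others being Tap2 and Nlrc5. It gives 250 bases before and 50 bases after each start site. Each line runs 5′ to 3′ on the gene's own strand, from 10 bases before the first to 10 bases after the last element of the proximal cluster. Capitals mark letter matches to GGGGATTCC (an NF-kB site of the class I enhancer), TGACG (the core of an X2 box), ATTGG or its complement CCAAT (a Y box) and GAAANNGAA (the core of an interferon-stimulated element, N being any base).
H2-K1, chr17:34000325-34000468, minus strand: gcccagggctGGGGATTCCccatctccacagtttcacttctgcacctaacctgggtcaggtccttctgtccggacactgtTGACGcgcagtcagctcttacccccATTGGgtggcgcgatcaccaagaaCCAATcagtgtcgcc
H2-D1, chr17:35262913-35263055, plus strand: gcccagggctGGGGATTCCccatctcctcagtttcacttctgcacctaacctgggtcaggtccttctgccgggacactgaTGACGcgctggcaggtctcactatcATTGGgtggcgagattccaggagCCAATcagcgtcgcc
H2-Q6, chr17:35424667-35424809, plus strand: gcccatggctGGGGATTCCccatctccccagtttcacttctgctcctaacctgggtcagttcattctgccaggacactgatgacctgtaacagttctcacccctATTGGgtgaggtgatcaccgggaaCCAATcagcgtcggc
H2-Q7, chr17:35439012-35439153, plus strand: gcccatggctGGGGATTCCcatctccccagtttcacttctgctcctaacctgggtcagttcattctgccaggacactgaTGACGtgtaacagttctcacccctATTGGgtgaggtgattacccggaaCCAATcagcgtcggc
B2m, chr2:122147538-122147648, plus strand: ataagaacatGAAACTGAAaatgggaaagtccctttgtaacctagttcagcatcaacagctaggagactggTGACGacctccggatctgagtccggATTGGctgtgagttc

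On both strands, the letters GGGGATTCC were in all 4 heavy-chain promoters and in 82 of the 32851 promoters of the table (0.2%). TGACG was in the promoters of H2-K1, H2-D1, H2-Q7, B2m and Tap1 and in 20.8% of all promoters, so H2-Q6 was the heavy chain without these letters in the window. ATTGG was in 37.4% of all promoters, GAAANNGAA in 8.6%, and TTCNNNGAA (an interferon-gamma activated site, matched only by Psmb8 among the members) in 8.3%. The promoters of H2-Q6 and H2-Q7 were 97.7% identical over 260 aligned bases. A match of letters is a description and not evidence of a factor bound there. Only these exact letters were searched. Interferon, NF-kB or other elements with other letters stay unmarked, so lower case does not mean that a promoter lacks them.

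The H2-Q pair is also close in coding sequence, which bears on how their reads were counted. The coding sequences of H2-Q6 and H2-Q7 differed at 45 of 978 aligned bases (95.4% identity), against 91.5% identity between H2-K1 and H2-D1. Their longest identical run was 265 bases, and 33.4% of 50-base coding windows were identical between them. A stretch where the copies do differ, coding bases 86 to 135 on chromosome 17, shows what a read needs in order to be assigned, with the differing bases in capitals.
H2-Q6: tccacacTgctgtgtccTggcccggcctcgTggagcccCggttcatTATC
H2-Q7: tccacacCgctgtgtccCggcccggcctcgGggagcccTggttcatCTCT

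Reads were 50 bases long, in pairs for 24 libraries and single, from another instrument, for 6. No source used here names these 6, so read layout may coincide with an age or a sex, and its part in the differences below was not tested. Of all 50-base stretches of their transcripts, 65.0% were found in no other gene for H2-Q6 and 73.5% for H2-Q7. The same share was 90.4% for H2-K1, 87.2% for H2-D1, 100% for B2m and 99.7% for Nlrc5. H2-Q6 shared 13.9% of its stretches with H2-Q7 and 12.3% with H2-Q4. With stretches of 100 bases, closer to what a read pair covers, the unique share was 87.0% for H2-Q6 and 88.0% for H2-Q7. Reads that fit several places were set aside in the deposited counts, so the levels of both H2-Q genes can be underestimates, and the split of reads between them is uncertain. Tapbp (29.0% of exon bases), Tap2 (18.5%) and Psmb8 (14.7%) overlap other annotated genes, and with a kit that keeps no strand the reads of overlapping genes cannot be told apart.

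Each library held between 24140980 and 50464366 reads counted in genes. After a filter on low counts 16844 genes were tested, among them all 10 members, whose lowest count in any library was 70. Levels below are in CPM, the reads of a gene per 1000000 reads of its library, with library totals scaled by edgeR's TMM factors. Endothelial identity genes summed to between 16790 and 22370 CPM in every library, a sum that does not show the changes of single genes given below. Reads outside genes made up 3.82 to 6.61% of reads at 2 months and 7.99 to 13.1% at 18 months, ranges that did not overlap. There were 3 libraries that stood apart in the members. Female replicate 4 at 6 months was the highest of all 30 libraries in 8 of the 10 members, male replicate 2 at 24 months was the highest of its age in 9, and male replicate 1 at 2 months was the lowest of all in 4. Slopes and comparisons with 2 months that pass or stop passing without one of these 3 libraries are given with and without it.

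Per kilobase of exon, averaged over 30 libraries, B2m had the highest level (2173 CPM per kb), followed by H2-D1 (1126), H2-K1 (367) and Tapbp (170). Psmb8 (45.3 CPM per kb) and Tap2 (44.8) did not separate, Psmb8 being the higher in 14 of 30 libraries. H2-Q6 (38.2 CPM per kb), Tap1 (17.7), H2-Q7 (10.5) and Nlrc5 (1.46) came last. The first 4 places were kept in nearly every library, H2-K1 being above Tapbp in 29 of 30 and the others in 30 of 30. H2-Q6 was above Tap1 in 22 of 30 libraries and below it in the rest. These levels per kilobase depend on the exon length used, which was 4265 bases for H2-Q7 and 2085 bases for H2-Q6. Their coding sequences are of similar length (1002 and 978 bases). Without the division H2-Q6 averaged 79.7 and H2-Q7 44.9 CPM, a smaller ratio. By mean CPM, H2-D1 came before B2m, Tap2 before Psmb8 and Tap1 before H2-Q6. How much of each exon length was transcribed in these cells was not tested.

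The H2-Q genes changed most of the members. H2-Q6 was at 3.91 CPM in its lowest, 9.01 in its median and 17.9 in its highest library at 2 months. At 6 months these values were 18.7, 33.9 and 472.2 CPM. At 12 months they were 42.0, 51.5 and 100.7 CPM, at 18 months 42.7, 70.0 and 91.4 CPM, and at 24 months 104.3, 139.8 and 301.4 CPM. Every library of each later age lay above every 2-month library, at 6 months by a narrow margin. At 24 months H2-Q6 also lay above every library of 2, 12 and 18 months, where the highest was 100.7 CPM. Mean levels were 9.47 ± 5.44 CPM (SD, n = 6) at 2 months and 159 ± 72.8 CPM (SD, n = 6) at 24 months, 16.8-fold higher.

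H2-Q7 ran at a lower mean level than H2-Q6 at every age. Its lowest, median and highest libraries were at 2.79, 5.40 and 13.6 CPM at 2 months, and at 8.12, 23.2 and 313.6 CPM at 6 months. They were at 25.4, 39.6 and 59.9 CPM at 12 months, 25.1, 35.4 and 48.1 CPM at 18 months and 52.5, 64.1 and 135.5 CPM at 24 months. At 6 months the range overlapped that of 2 months, and at 12, 18 and 24 months every library was above every 2-month library. The mean of 74.9 ± 32.1 CPM (SD, n = 6) at 24 months was 11.8-fold the 6.34 ± 4.11 CPM (SD, n = 6) of 2 months.

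**Figure D1:**
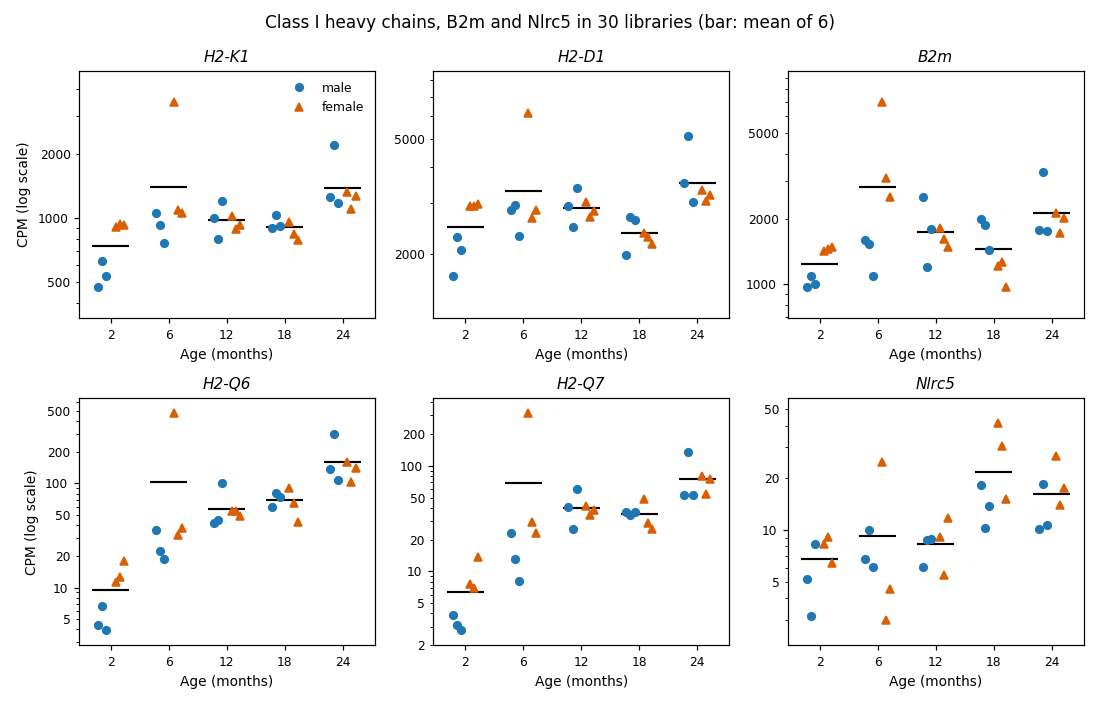
Level of the 4 heavy chains, B2m and Nlrc5 in each of 30 libraries (y axis: CPM, log scale; x axis: age in months; circles male, triangles female; bar: mean of 6). H2-Q6 lies between 3.91 and 17.9 CPM at 2 months and between 104.3 and 301.4 CPM at 24 months, and 1 female library at 6 months (472.2 CPM) stands above all others.

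Each later age was compared with 2 months in 1 fit across all genes (edgeR quasi-likelihood test, sex as covariate, Benjamini-Hochberg adjusted p under 0.05). The 4 comparisons share the 2-month libraries. Both H2-Q genes were higher at every later age. On the log2 scale H2-Q6 was higher by 3.34 ± 0.60 (SE) at 6, 2.77 ± 0.59 at 12, 3.02 ± 0.59 at 18 and 4.26 ± 0.63 at 24 months, with edgeR adjusted p of 8.54e-04, 0.00741, 6.55e-04 and 2.63e-05. H2-Q7 was higher by 3.29 ± 0.60 at 6, 2.85 ± 0.59 at 12, 2.64 ± 0.59 at 18 and 3.76 ± 0.61 at 24 months, with edgeR adjusted p of 0.00100, 0.00593, 0.00212 and 1.09e-04. Without female replicate 4 the changes at 6 months were 1.71 ± 0.33 for H2-Q6 and 1.71 ± 0.34 for H2-Q7 and still passed (edgeR adjusted p 0.00241 and 0.00299). Without male replicate 2 the changes at 24 months were 3.87 for H2-Q6 and 3.37 for H2-Q7, both past the threshold.

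A straight line over age, scaled to the 22 months from 2 to 24, gave a slope of 2.48 ± 0.70 (log2, SE) for H2-Q6 (edgeR adjusted p 0.0191) and 1.91 ± 0.71 for H2-Q7 (0.0805). For both genes the 5 ages departed from a line (edgeR adjusted p 0.00699 and 0.00618). Without the 2-month libraries the slope of H2-Q6 was 1.07 (edgeR adjusted p 0.351) and that of H2-Q7 0.443 (0.740). Without female replicate 4 at 6 months the slopes were 3.54 ± 0.35 (edgeR adjusted p 3.80e-08) and 2.97 ± 0.40 (8.34e-06). Without male replicate 2 at 24 months H2-Q6 had a slope of 2.09 (edgeR adjusted p 0.0501).

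Counting both H2-Q genes as 1 feature, which removes the split of reads between them, gave a slope of 2.29 (edgeR adjusted p 0.032). The H2-Q7 share of their joint reads was 39.9 ± 5.54% at 2 months, 38.8 ± 5.71% at 6, 41.4 ± 4.94% at 12, 33.8 ± 3.40% at 18 and 32.2 ± 2.61% at 24 months (SD, n = 6 each). Against 2 months, exact two-sided permutation tests over libraries gave p of 0.727, 0.623, 0.0498 and 0.0195, and 0.727, 0.727, 0.0996 and 0.0779 after Benjamini-Hochberg adjustment over the 4 tests, so no difference in the share passed. Set against the classical chains, H2-Q6 and H2-Q7 together held 0.465 ± 0.193 reads per 100 reads of H2-K1 and H2-D1 at 2 months. The ratio was 2.44 ± 2.82 at 6, 2.49 ± 0.518 at 12, 3.18 ± 0.615 at 18 and 4.62 ± 0.880 at 24 months (SD, n = 6 each). Female replicate 4 carried the mean at 6 months, which was 1.30 ± 0.373 (SD, n = 5) without it. At 2 months no library exceeded 0.808, and at 24 months none was below 3.81.

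**Figure D2:**
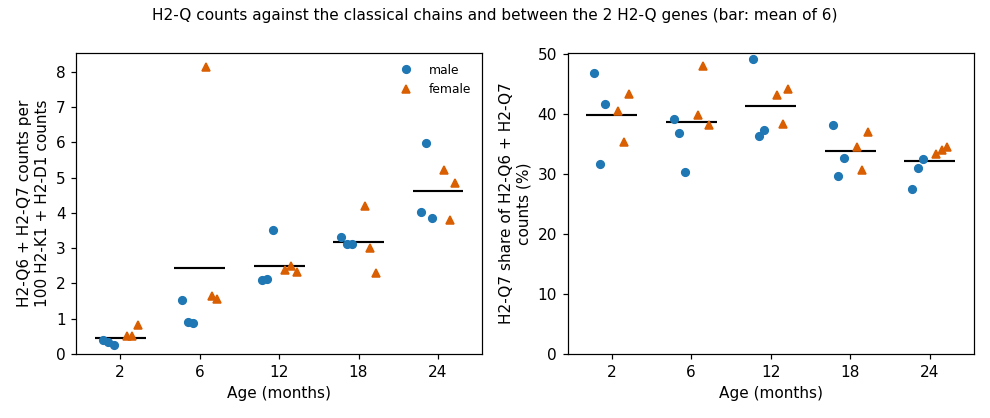
Left: reads of H2-Q6 and H2-Q7 per 100 reads of H2-K1 and H2-D1. Right: H2-Q7 as a percentage of H2-Q6 and H2-Q7 reads. Points are libraries (circles male, triangles female; x axis: age in months; bar: mean of 6). The ratio has means of 0.465 at 2 and 4.62 at 24 months, whereas the H2-Q7 share has means between 32.2 and 41.4%.

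The other H2-Q genes in the files all averaged under 10 CPM. H2-Q5, annotated as a polymorphic pseudogene, averaged 9.46 CPM, H2-Q4 5.41, H2-Q2 0.574 and H2-Q1 0.242 CPM. H2-Q3 (0.00796 CPM) and H2-Q10 (0.100 CPM) did not pass the low-count filter. H2-Q4 had means of 2.08 ± 0.622 CPM at 2 and 7.99 ± 2.83 CPM at 24 months (SD, n = 6), a log2 change of 1.95 ± 0.39 (edgeR adjusted p 0.00116). H2-Q2 was also higher at 24 than at 2 months, by 3.796 ± 0.805 (log2, SE; edgeR adjusted p 0.002399). Its levels were low, with means of 0.08872 ± 0.08596 CPM at 2 and 1.07 ± 0.318 CPM at 24 months (SD, n = 6). The change of H2-Q1 did not pass (0.614 ± 1.180, edgeR adjusted p 0.8283). H2-Q4 shares 9.7% of its 50-base stretches with H2-Q6, so reads from these stretches can be missing from both genes. Whether some of the reads counted for H2-Q4 came from H2-Q6 was not tested. H2-Q8 and H2-Q9 were not matched and are not analysed here.

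The classical chains had moderate changes. H2-K1 was at 475.4, 766.2 and 940.7 CPM in the lowest, median and highest library of 2 months, and at 763.9, 1052 and 3483 CPM at 6 months. The values were 796.1, 964.1 and 1198 CPM at 12 months, 791.9, 905.7 and 1029 CPM at 18 months and 1104, 1254 and 2192 CPM at 24 months. Every 24-month library was above every library of 2 and 18 months, while 6, 12 and 18 months overlapped 2 months. The mean was 1.88-fold higher at 24 than at 2 months (1385 ± 403 against 735 ± 213 CPM, SD, n = 6).

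In the edgeR fit H2-K1 was higher than at 2 months by 0.91 ± 0.25 (log2, SE) at 6 months (adjusted p 0.0231) and by 0.96 ± 0.25 at 24 months (adjusted p 0.0155). It did not pass at 12 months (0.44, adjusted p 0.392) or at 18 months (0.34, adjusted p 0.371). The change at 6 months was 0.46 without female replicate 4 (edgeR adjusted p 0.119), and that at 24 months was 0.74 without male replicate 2 (edgeR adjusted p 0.0579). The slope of H2-K1 was 0.45 ± 0.26 (edgeR adjusted p 0.280) and passed without female replicate 4 at 6 months (0.69 ± 0.16, edgeR adjusted p 0.00648).

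H2-D1 was at 1673, 2600 and 2969 CPM (lowest, median, highest) at 2 months and at 2296, 2841 and 6161 CPM at 6 months. It was at 2476, 2862 and 3385 CPM at 12 months, 1983, 2323 and 2687 CPM at 18 months and 3014, 3254 and 5104 CPM at 24 months. All 24-month libraries lay above all 2-month libraries by a narrow margin. The fitted change at 24 months was 0.53 ± 0.18 (log2, SE; edgeR adjusted p 0.0638) and passed without female replicate 4 at 6 months (0.53, edgeR adjusted p 0.0136). At 18 months the change was -0.06 ± 0.18 (edgeR adjusted p 0.858).

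B2m, the chain that every heavy chain needs, was at 969.9, 1250 and 1484 CPM at 2 months (lowest, median, highest) and at 1084, 2062 and 6965 CPM at 6 months. It was at 1197, 1705 and 2518 CPM at 12 months, 968.0, 1346 and 1994 CPM at 18 months and 1724, 1902 and 3313 CPM at 24 months. Again 24 months did not overlap 2 months and the ages between did. The fitted change was 1.15 ± 0.30 (log2, SE) at 6 months (edgeR adjusted p 0.0161) and 0.81 ± 0.30 at 24 months (edgeR adjusted p 0.0896). Without female replicate 4 these became 0.71 (edgeR adjusted p 0.0757) and 0.80 (edgeR adjusted p 0.0248), so that library decided which age passed.

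Of the 4 peptide-supply genes, only Tapbp passed in any comparison with 2 months. Tap1 means were 84.4 ± 21.1, 112 ± 81.3, 77.9 ± 15.3, 90.1 ± 25.3 and 120 ± 37.1 CPM from 2 to 24 months (SD, n = 6 each). Its change at 24 months was 0.55 ± 0.26 (log2, SE; edgeR adjusted p 0.228). Tap2 means were 178 ± 27.7, 194 ± 72.6, 154 ± 19.0, 159 ± 20.0 and 161 ± 24.8 CPM (SD, n = 6 each), with a change of -0.12 ± 0.15 at 24 months (edgeR adjusted p 0.706). Within the same transporter the 2 subunits were therefore measured with changes of opposite sign at 24 months, neither past the threshold; their difference was not tested.

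Psmb8 means were 126 ± 21.7, 199 ± 117, 143 ± 18.5, 127 ± 21.4 and 171 ± 43.3 CPM (SD, n = 6 each). It missed the threshold at 6 months (0.65 ± 0.22, log2, SE; edgeR adjusted p 0.0551) and at 24 months (0.46 ± 0.22, edgeR adjusted p 0.212). The value at 6 months lay near the threshold and passed with DESeq2 (0.66, adjusted p 0.0210) and in 7 of the 30 fits that left out 1 library, among them that without male replicate 2 at 24 months (edgeR adjusted p 0.0445). With the share of reads outside genes as a covariate both ages passed, at 0.72 and 0.83 (edgeR adjusted p 0.00893 and 0.00649). Tapbp was the member that fell. Its lowest, median and highest libraries were at 492.6, 718.2 and 794.5 CPM at 2 months and at 400.1, 525.1 and 607.5 CPM at 18 months. The groups overlapped, and the change was -0.41 ± 0.11 (log2, SE; edgeR adjusted p 0.0115). At 24 months Tapbp had a mean of 670 ± 86.3 CPM against 693 ± 114 CPM at 2 months (SD, n = 6), a change of -0.05 ± 0.11 (edgeR adjusted p 0.855). With the share of reads outside genes as a covariate, the change of Tapbp at 18 months was 0.09 (edgeR adjusted p 0.897). The ranges of that share did not overlap between 2 and 18 months, so the share and the age cannot be told apart. With the same covariate H2-D1 passed on the slope (0.68, edgeR adjusted p 0.0156), at 6 months (0.49, edgeR adjusted p 0.0263) and at 24 months (0.84, edgeR adjusted p 0.00102), H2-Q7 on the slope (3.08, edgeR adjusted p 0.0273) and B2m at 24 months (1.21, edgeR adjusted p 0.0106).

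**Figure D3:**
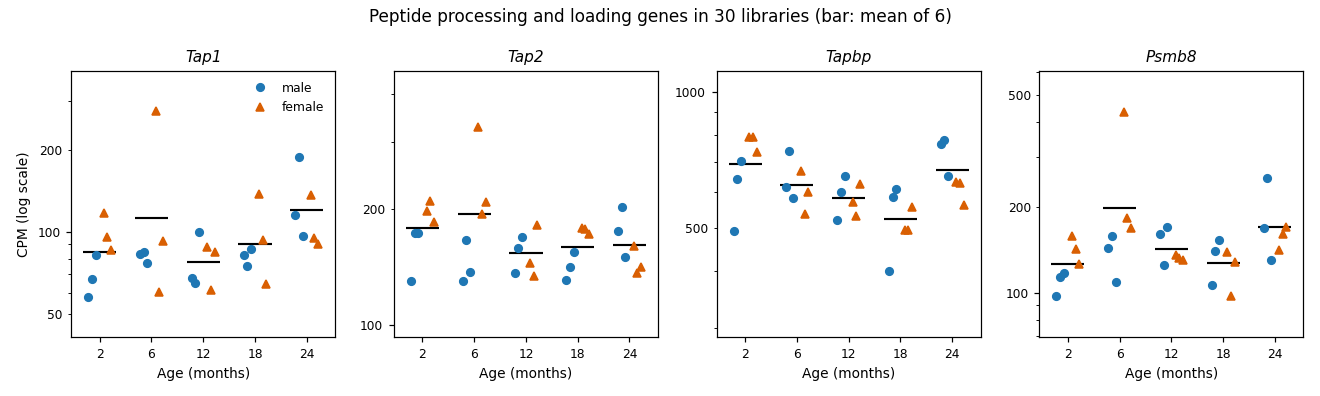
Level of Tap1, Tap2, Tapbp and Psmb8 in each of 30 libraries (y axis: CPM, log scale; x axis: age in months; circles male, triangles female; bar: mean of 6). The ages overlap in all 4 genes, and Tapbp has its lowest mean (523 CPM) at 18 months.

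Nlrc5, the class I transactivator, followed another time course. Its lowest, median and highest libraries were at 3.15, 7.36 and 9.03 CPM at 2 months, 3.00, 6.42 and 24.7 CPM at 6 months and 5.43, 8.74 and 11.6 CPM at 12 months. At 18 months they were at 10.3, 16.5 and 41.3 CPM, and at 24 months at 10.1, 15.7 and 26.7 CPM. The first 3 ages overlapped, and every library of 18 and 24 months was above every 2-month library. The mean at 18 months was 3.18-fold and that at 24 months 2.40-fold the mean at 2 months.

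Nlrc5 had a slope of 1.49 ± 0.34 (log2 over 22 months, SE; edgeR adjusted p 0.00463), and its departure from a line did not pass (edgeR adjusted p 0.177). Against 2 months the change was 0.45 at 6 months (edgeR adjusted p 0.467) and 0.33 at 12 months (edgeR adjusted p 0.697). It was 1.62 ± 0.36 at 18 months (edgeR adjusted p 0.00215) and 1.26 ± 0.36 at 24 months (edgeR adjusted p 0.0246). The slope passed in each of the 30 fits that left out 1 library (1.36 to 1.70), whereas the change at 24 months did not pass in 4 of them. These were the fits without male replicate 2 (1.13, edgeR adjusted p 0.0631) or female replicate 4 (1.14, edgeR adjusted p 0.0668) of 24 months, and without male replicate 2 (1.15, edgeR adjusted p 0.0648) or female replicate 6 (1.21, edgeR adjusted p 0.0587) of 2 months. With the share of reads outside genes as a covariate no Nlrc5 call held. The slope was then 1.04 (edgeR adjusted p 0.171), the change at 18 months 1.57 (edgeR adjusted p 0.296) and that at 24 months 1.25 (edgeR adjusted p 0.0708). With no low-count filter the change at 24 months was 1.26 (edgeR adjusted p 0.0518). The highest Nlrc5 levels of all 30 libraries, 41.3 and 30.4 CPM, were in females of 18 months. The same libraries had the largest shares of reads outside genes (12.71 and 13.06%). For Nlrc5 too, that share and the age cannot be told apart at 18 months.

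**Figure D4:**
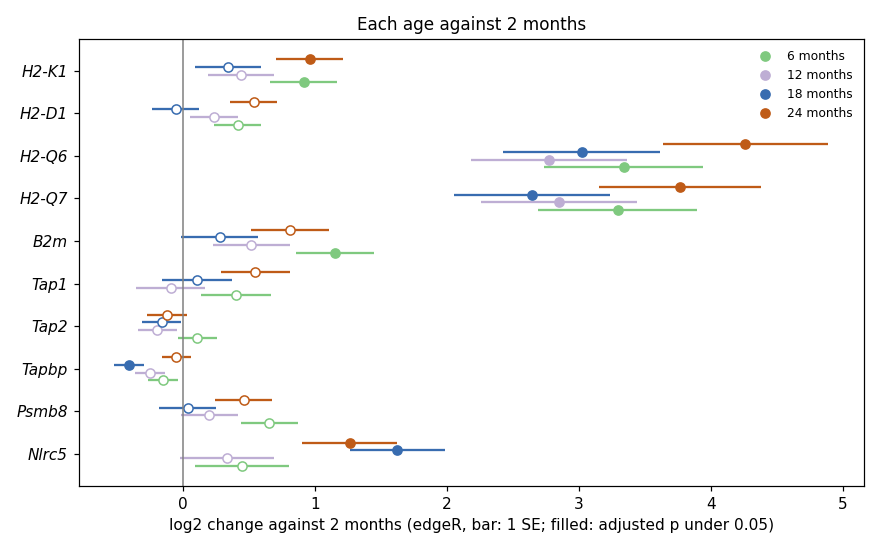
Log2 change of each member at 6, 12, 18 and 24 months against 2 months (x axis; bar: 1 SE; filled: edgeR adjusted p under 0.05). Changes of H2-Q6 and H2-Q7 lie between 2.64 and 4.26 at all ages, those of Nlrc5 pass at 18 and 24 months, and those of Tap1, Tap2 and Psmb8 pass at none.

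The members were chosen with earlier results of these data known, so the shares of all genes beside their counts are a description and not a test. Over the 10 members, 2 had a slope called higher (H2-Q6 and Nlrc5) and none lower, where 5.72% of the 16844 genes were called higher and 5.22% lower. The median slope of the members was 0.27 (log2), against 0.03 for all genes. Called higher were 4 of 10 at 6 months (H2-K1, H2-Q6, H2-Q7 and B2m; 4.07% of all genes), 2 at 12 months (1.38%), 3 at 18 months (10.1%) and 4 at 24 months (H2-K1, H2-Q6, H2-Q7 and Nlrc5; 4.86%). Called lower was Tapbp at 18 months, where 8.7% of all genes were lower. Every library lay above every 2-month library in 1 of 10 members at 6 months (1.47% of all genes), 2 at 12 months (0.986%), 3 at 18 months (4.69%) and 6 at 24 months (3.74%). A departure from a line was called for 6 members (H2-K1, H2-D1, H2-Q6, H2-Q7, B2m and Tapbp) and for 17.7% of all genes. Because the preparations are bulk RNA, fewer cells of a type and less RNA per cell cannot be told apart in any of these changes.

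Sex separated the members at 2 months. In 9 of the 10, all but Nlrc5, every 2-month female library was above every 2-month male library, which held for 4.8% of all genes. H2-K1 was at 905, 940.7 and 928.1 CPM in females and at 475.4, 627.4 and 534.4 CPM in males. H2-D1 was at 2921, 2933 and 2969 CPM in females and at 1673, 2279 and 2055 CPM in males. H2-Q6 was at 11.3, 12.7 and 17.9 CPM in females and at 4.37, 6.73 and 3.91 CPM in males. With 3 against 3 libraries an exact permutation test cannot go below p = 0.1, so this is a description. In those 9 members, each of the 3 males was below the females. Male replicate 1 had the highest summed microglial (1584 CPM) and astrocyte (1200 CPM) markers and the lowest endothelial identity sum (16790 CPM) of all libraries. Its part in the sex difference was not tested.

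At later ages the sexes overlapped in most members. Every female was above every male in 4 members at 6 months (13.1% of all genes), in none at 12 months (4.72%), in Tap2 at 18 months (10.8%) and in none at 24 months (6.29%). Every male was above every female for B2m at 18 months (1994, 1866 and 1431 CPM against 1206, 1261 and 968 CPM) and for Tapbp at 24 months. This was 1 of 10 members at either age, where 11% of all genes at 18 and 6.32% at 24 months had every male above every female, so the members were near the share of all genes. No member had every male above every female at 2, 6 or 12 months, where 3.79%, 16.3% and 5.03% of all genes did. From 2 to 24 months the mean of H2-Q6 was 36.6-fold higher in males and 9.72-fold in females. For H2-Q7 the folds were 24.6 and 7.39, for H2-K1 2.82 and 1.33, for H2-D1 1.94 and 1.08, and for B2m 2.24 and 1.35. Without male replicate 2 at 24 months the male folds were 24.7 for H2-Q6, 16.1 for H2-Q7, 2.22 for H2-K1 and 1.73 for B2m. Nlrc5 had folds of 2.35 in males and 2.44 in females.

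Over all ages no member was called by sex (edgeR adjusted p under 0.05 for 0 of 10, and for 0.101% of all genes). Unadjusted edgeR p was under 0.05 for Tap2 and Nlrc5, and for 1316 of the 16844 genes. DESeq2 also called 0 members by sex. The difference between the female and the male slope was negative in 9 of 10 members, with a median of -0.97 (log2 over 22 months), and called in none. It was -3.54 ± 1.22 (SE) for H2-Q6, -1.39 ± 0.47 for H2-K1 and -1.68 ± 0.57 for B2m, each with an edgeR adjusted p of 0.876. No gene of the 16844 passed this test (0%), and DESeq2 called 0 as well. Unadjusted p was under 0.05 for 9 of the 10 members and for 916 of all genes. Without female replicate 4 at 6 months the difference was -1.35 for H2-Q6 and -0.90 for H2-K1. In male libraries alone H2-Q6 had a slope of 4.23 (edgeR adjusted p 7.31e-04), and in female libraries alone, which hold that library, 0.71 (edgeR adjusted p 0.711).

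The library that stood furthest apart was female replicate 4 at 6 months. There the 10 members summed to 19130 CPM, where the next highest library had 12490 CPM (male replicate 2 at 24 months). H2-Q6 was at 472.2 CPM, where the next library of its age was at 37.5, and Tap1 was at 276.9 CPM against 92.3 in the next. B2m was at 6965 CPM, the other 2 females of that age being at 3100 and 2522 CPM and thus also above the males. Of the members only Tapbp (666.9 CPM) and Nlrc5 (24.7 CPM) did not reach their highest level there. The other immunoproteasome and activator genes (1183 CPM summed) and the class II genes (164.1 CPM summed) were also at their highest in this library. Its summed microglial markers ranked 26th of 30 (234.4 CPM), its T and NK cell markers 21st (1.56 CPM) and its endothelial identity genes 14th (19280 CPM). Its pericyte markers ranked 4th (736.6 CPM), fibroblast markers 5th (518.3 CPM), neutrophil and monocyte markers 6th (4.79 CPM) and choroid plexus markers 7th (3508 CPM), and their part in its levels was not tested.

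Male replicate 2 at 24 months was the other library with many high members, with H2-D1 at 5104 CPM, H2-K1 at 2192 CPM and H2-Q6 at 301.4 CPM. In it the summed markers of pericytes (1139 CPM), smooth muscle (390.4 CPM) and T and NK cells (5.65 CPM) were the highest of 30, and their part in these levels was not tested. T and NK cell markers summed to between 0.370 and 5.65 CPM over all libraries, and Ifng was at 0 in 27 of 30. Of the 10 microglial markers none was called on the slope. Called lower than at 2 months were 1 at 6, 4 at 12, 2 at 18 and 1 at 24 months, where 4.69%, 1.56%, 8.7% and 3.48% of all genes were lower.

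Markers of other cells in the brain also moved with age. On the slope 5.72% of all genes were called higher and 5.22% lower. At 18 months 8.7% were lower, and at 24 months 4.86% were higher and 3.48% lower. Of 7 pericyte markers 3 were higher on the slope and 2 at 24 months, Rgs5 by 0.81 ± 0.19 (log2, SE; edgeR adjusted p 0.00532) and Kcnj8 by 1.19 ± 0.31 (edgeR adjusted p 0.0128). The pericyte markers summed to 418.5 to 707.3 CPM at 2 months and 441.7 to 1139 CPM at 24 months, ranges that overlapped. Of 5 smooth muscle markers 1 was higher on the slope. Of 5 choroid plexus markers 4 were lower on the slope, 5 at 18 months and 3 at 24 months, their sum being 914.6 to 4303 CPM at 2 months and 624.7 to 2273 CPM at 24 months. Of 7 astrocyte markers 2 were lower on the slope and 2 at 24 months (434.4 to 1200 CPM summed at 2 months, 191.0 to 544.3 CPM at 24 months). Lower at 6 months were 2 pericyte, 1 smooth muscle, 2 choroid plexus, 1 astrocyte and 1 neutrophil and monocyte markers, where 4.69% of all genes were lower. At 12 months 2 astrocyte, 1 T and NK cell and 1 fibroblast markers were lower (1.56% of all genes). At 18 months 3 astrocyte and 1 fibroblast markers were lower. Of 5 neutrophil and monocyte markers tested 2 were higher at 18 months, their sum being 1.68 to 4.37 CPM at 2 and 2.14 to 44.2 CPM at 18 months. Neuron markers had 1 of 6 higher on the slope and at each later age. Of all genes 4.07%, 1.38%, 10.1% and 4.86% were higher at 6, 12, 18 and 24 months. The neuron sum was 28.73 to 42.65 CPM at 2 and 109.2 to 151.5 CPM at 24 months, ranges that did not overlap. Stmn2 made up most of that sum (mean 86.3 CPM over 30 libraries), the next marker being Snap25 (2.05 CPM). At 24 months only 2 of the 6 neuron markers had a positive change, and the median change was -0.46 (log2), so the sum does not describe the list. The part of all these cells in the changes of the members was not tested. Of the 10 endothelial identity genes, Erg rose on the slope (1.14 ± 0.27, log2, SE, edgeR adjusted p 0.00582) and Cldn5 fell (-0.59 ± 0.14, edgeR adjusted p 0.0046). At 6 months 1 of the 10 was higher and 2 lower, at 18 months 2 were higher and 1 lower. At 24 months Erg was higher by 1.53 ± 0.13 (edgeR adjusted p 1.76e-09). A departure from a line was called for 5 of the 10, and for 17.7% of all genes.

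**Figure D5:**
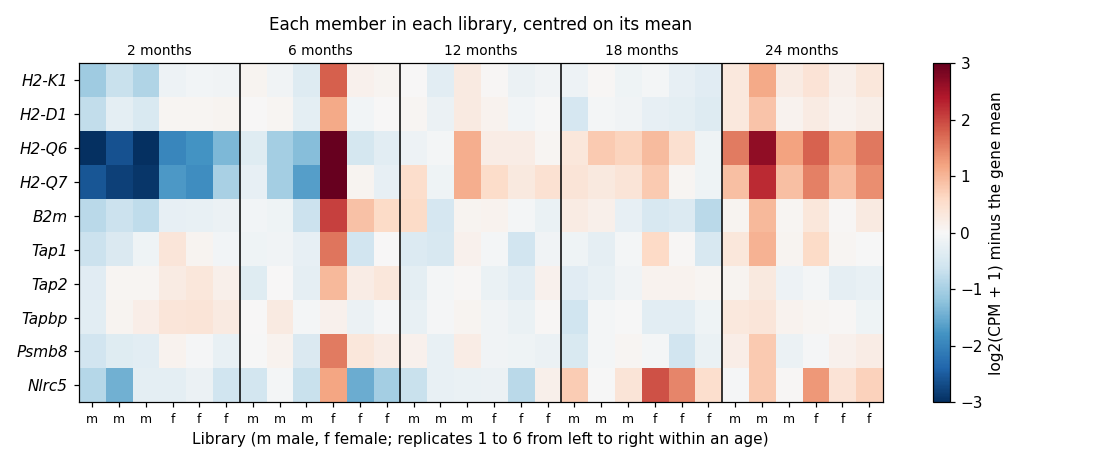
Level of each member in each library, as log2(CPM + 1) minus the mean of that gene over 30 libraries (colour; red above, blue below; rows: members; columns: libraries by age, m male, f female, replicates 1 to 6 from left to right). The blue block of H2-Q6 and H2-Q7 at 2 months, the red column of female replicate 4 at 6 months and the late red cells of Nlrc5 are the main patterns.

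Genes that work with the members were read from lists chosen by function, with earlier results of these data known. They are set beside the 5.72% of all genes called higher and 5.22% called lower on the slope. Of 12 other class I heavy chain and class I-like genes tested, H2-T10, a non-classical chain, rose on the slope (0.92 ± 0.26, log2, SE; edgeR adjusted p 0.0191). Cd1d1, which presents lipids, fell (-1.38 ± 0.45, adjusted p 0.0430), and so did Fcgrt, the neonatal Fc receptor (-0.45 ± 0.10, edgeR adjusted p 0.00230). H2-T10 and Cd1d1 were at low levels. H2-T10 had means of 2.19 ± 0.655 CPM at 2 and 3.89 ± 0.771 CPM at 24 months (SD, n = 6). Those of Cd1d1 were 2.365 ± 1.457 and 0.752 ± 0.312 CPM (SD, n = 6). Mean Fcgrt levels were 1612 ± 191 CPM in the youngest and 1278 ± 90.1 CPM in the oldest group (SD, n = 6). H2-T23, which encodes Qa-1, had a slope of -0.17 ± 0.21 (edgeR adjusted p 0.660). H2-T23 levels were 234 ± 22.7 CPM at 2 and 268 ± 60.5 CPM at 24 months (SD, n = 6).

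None of 6 other peptide loading genes, 5 other immunoproteasome and activator genes or 3 constitutive catalytic proteasome subunits was called on the slope. Unadjusted edgeR p was under 0.05 for 1, 0 and 2 of them, and for 4348 of the 16844 genes. Psmb9, the immunoproteasome subunit whose gene adjoins Tap1, had a slope of 0.23 ± 0.27 (log2, SE; edgeR adjusted p 0.623) and was higher at 24 than at 2 months (0.79 ± 0.24, edgeR adjusted p 0.0378). Psmb9 means were 71.0 ± 11.1, 147 ± 102, 100.5 ± 21.9, 87.6 ± 13.3 and 121 ± 27.7 CPM from 2 to 24 months (SD, n = 6 each).

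Of 20 other regulators, Rfx5, a subunit of the RFX complex that binds the X box, rose on the slope (0.69 ± 0.20, log2, SE; edgeR adjusted p 0.0224). Rfxap, another subunit of the same complex, fell (-0.37 ± 0.08, edgeR adjusted p 0.00280), as did the interferon-gamma receptor subunit Ifngr2 (-0.37 ± 0.10, edgeR adjusted p 0.0169). Irf1, an interferon-signalling transcription factor, had a slope of -0.10 ± 0.12 (edgeR adjusted p 0.662). It was at 209 ± 26.6 CPM at 2 months and 228 ± 24.9 CPM at 24 months (SD, n = 6). Of 7 class II genes, H2-Ab1 rose (1.05 ± 0.35, edgeR adjusted p 0.0461). Cd74, the invariant chain, had a slope of 0.32 ± 0.37 (edgeR adjusted p 0.616). With 1 of 20 regulators higher and 2 lower, the regulators were near the share of all genes.

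The genes most like the members across the 30 libraries were ranked by Spearman correlation with the mean of the members' centred log2 levels, among 13058 genes of at least 1 CPM. They were H2-Q5 (0.935), Gm4951 (0.886), Apol9b (0.847), Flot2 (0.847), Apol9a (0.835), Phf11d (0.824), H2-Q4 (0.796) and Efemp2 (0.795). H2-Q5 shares 25.5% of its 50-base stretches with H2-Q7. Reads that fitted both genes were set aside in the deposited counts, so both levels can be underestimates. Whether other reads were assigned to the wrong one of them was not tested. The member levels were centred and not scaled. H2-Q6 and H2-Q7, which ranged widest on the log2 scale, therefore weigh most in that mean. The genes most like Nlrc5 were Gm4070 (0.853), Oas2 (0.819), Gvin1 (0.812), Ddx60 (0.784) and Gm8995 (0.775), none of which was in the first group. These correlations are a description over libraries that share age and sex groups and a sequencing depth each.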

How the data were processed

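Per the labels' protocols, cDNA was made with a SMART-Seq v4 low-input kit and libraries with Nextera XT, which keep no strand and add no molecular identifiers, so PCR copies are counted. The sources used here do not say which 6 libraries were single-end, and instrument entered no model. STAR 2.5.2b, HTSeq, MultiQC and FastQC 0.11.4 and the builds GRCm38 and mm10 stand in the submitters' processing notes. The authors deposited raw whole-number read counts per gene, without normalization, and their unstranded column was taken. Lines naming no gene were left out of all totals. Of all reads, 8.64 to 13.3% fitted several places, 2.51 to 6.26% were unmapped, 3.61 to 4.21% lay over several genes and 3.82 to 13.1% outside genes. The annotation release is not given in any source used here.

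Genes were filtered with edgeR 4.0.16 (R 4.3.3; filterByExpr by age, minimum count 10, minimum total 15), scaled by TMM and fitted with robust quasi-likelihood models over 30 libraries: months of age plus sex, age as a factor plus sex, 3 further polynomial terms of age, and the product of sex and age. P-values were Benjamini-Hochberg adjusted over 16844 genes, threshold 0.05. SE is the log2 change over the square root of F. The model scripts were tested on simulated data. Alternatives were other scaling, filters, DESeq2 1.42.0, covariates, left-out ages and libraries (after seeing the data also in the H2-Q ratio at 6 months and the male folds), each sex alone, log2 of age and summed H2-Q counts. Identifiers were matched without version (48349 of 48795 in the name table). Sequence comparisons used Biopython 1.88 and permutation tests SciPy 1.17.1. P-values measure the spread between these libraries.

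The members and lists were chosen with earlier results of these data known. Named are all 10 members, every gene of the wider class I and class II lists called on the slope, Irf1, Psmb9, H2-T23 and Cd74 whatever their result, all H2-Q genes, and the 8 genes most like the member mean and 5 most like Nlrc5. Another gene that the rule names is not reported here.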

Additional observations from a re-analysis of the deposited data

Results flagged for a closer look

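In each of the 10 members and 5 ages, the gap between the highest or lowest of the 6 libraries and its neighbour was set against the range of the group. The gap was over 0.625 of the range, Dixon's 95% critical value for 6 samples, in 15 of 50 groups. For samples of 1 normal population chance gives about 1 in 20. That rate need not hold here, because CPM were taken without a log scale and each group holds both sexes. The members are also not independent of each other. In all 15 the library was the highest of its age.

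At 6 months it was female replicate 4 in 8 members. The values were 3483 CPM for H2-K1 (next library 1085), 6161 for H2-D1 (next 2945), 472.2 for H2-Q6 (next 37.5), 313.6 for H2-Q7 (next 29.4), 6965 for B2m (next 3100), 276.9 for Tap1 (next 92.3), 433.2 for Psmb8 (next 183.9) and 24.7 for Nlrc5 (next 9.89). At 24 months male replicate 2 stood apart with 2192 CPM for H2-K1 (next 1326), 5104 for H2-D1 (next 3513), 301.4 for H2-Q6 (next 161.3), 135.5 for H2-Q7 (next 80.6), 3313 for B2m (next 2122) and 253.1 for Psmb8 (next 170.3). At 12 months male replicate 3 had 100.7 CPM of H2-Q6 (next 54.9).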

How the results depend on the processing

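Of the 8 counts of called members, those at 12 and 18 months, on sex and on the product of sex and age were the same in all 30 fits that left out 1 library. On the slope (2 called) these fits gave 1 to 4, at 6 months (4 called) 2 to 5, at 24 months (4 called) 2 to 6 and on the departure from a line (6 called) 3 to 7. Without female replicate 4 at 6 months, 4 slopes, 2 changes at 6 months, 6 changes at 24 months and 3 departures were called. Without male replicate 2 at 24 months, 1 slope and 2 changes at 24 months were called. The departure count was also 3 without any 1 of the 18-month females, and the departures of H2-D1 and Tapbp, near the threshold, did not pass in 19 and 16 of 30 fits.

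Other settings moved these counts as follows. The slope gave 1 called member with DESeq2, which gave no adjusted p to H2-Q6 and H2-Q7, 1 with no sex covariate, 0 without the 2-month libraries and 0 in female libraries alone. Departures fell to 2 with no low-count filter, 3 with the share of reads outside genes as covariate, 1 without the 2-month and 2 without the 18-month libraries. That covariate left 2 called at 18 months, while H2-D1, H2-Q7, B2m and Psmb8 gained calls with it on the slope or at 6 or 24 months. Summing H2-Q6 and H2-Q7, the only members called at 12 months, made them 1 feature. The count of 1 there comes from the merging and is no loss of a call. Other scaling, the stricter filter and the fit without robust dispersion moved no count by over 1.5 times.

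Directions turned mostly in members that had not passed, the exception being Tapbp at 18 months; the cause was not tested. With the covariate, log2 values became 0.17 (slope), 0.086 (18 months), 0.15 (24 months) and 0.064 (sex) for Tapbp, 0.034 for Tap1 at 12 months, 0.76 for H2-D1 and 0.31 for Tap2 at 18 months, 0.053 for Tap2 at 24 months and -0.14 for the product of sex and age of Nlrc5. Slopes without the 2-month libraries were -0.033 for H2-K1, -0.001 for H2-D1, -0.48 for B2m, 0.031 for Tapbp and -0.31 for Psmb8. In male libraries alone they were 0.12 for Tap2 and 0.11 for Tapbp. In female libraries alone they were -0.25 for H2-K1, -0.23 for H2-D1, -0.67 for B2m, -0.18 for Tap1 and -0.43 for Psmb8. In fits without 1 library the slope ranged from -0.031 to 0.43 for B2m and from -0.093 to 0.25 for Psmb8. The change at 6 months ranged from -0.036 to 0.57 for Tap1, from -0.045 to 0.19 for Tap2 and from -0.007 to 0.68 for Nlrc5, and that at 18 months from -0.027 to 0.20 for Tap1 and from -0.046 to 0.12 for Psmb8.

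No paired analysis was possible because the labels give no replicate numbers that join libraries across ages. Depth was lowest for Nlrc5 by the median (317.5 reads per library), and the lowest counts were 70 for H2-Q7, 73 for Nlrc5 and 98 for H2-Q6.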
